A study of Mus musculus with 32 samples.

Results

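The genes described are 10 markers of microglia, the resident macrophages of the brain: Aif1, C1qa, C1qb, C1qc, Cx3cr1, Csf1r, Cd68, Ctss, P2ry12 and Tmem119. They were chosen by name with earlier results of these data known, so counts set beside all genes describe them and are not independent support. The platform's probe annotation assigned 15 probe sets to them, each to that symbol alone, of 34945 such probe sets for 18193 genes. The values come from Affymetrix arrays of striatum, the forebrain region in which medium spiny neurons are the main neuron type, with 32 arrays of male mice on a CBA X C57Bl/6 background. R6/2 is a mouse model of Huntington's disease that carries a transgene of exon 1 of the human huntingtin gene with an expanded CAG repeat, under the human promoter. HSP990 (NVP-HSP990) is an inhibitor of the chaperone HSP90. The groups were R6/2 mice given HSP990 (8 arrays), R6/2 mice given vehicle (7 arrays), wild-type (WT) mice given HSP990 (10 arrays) and WT mice given vehicle (7 arrays). All mice were 12 weeks old, HSP990 was given by oral gavage at 12 mg/kg, and treatment lasted 4 h. The labels number the arrays within a group without saying that each came from another animal, so p-values measure the spread between these arrays.

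Microglia clear debris, prune synapses and watch over the parenchyma with motile processes. Their survival depends on CSF1 receptor signalling, and their resting state depends on signals from neurons such as the CX3CL1 ligand of CX3CR1. C1q, the recognition molecule that starts the classical complement pathway, is assembled from the chains encoded by C1qa, C1qb and C1qc, and in brain it is made mainly by microglia. The 3 C1q genes lie side by side on mouse chromosome 4 (GRCm38.p6), C1qb at chr4:136880126-136886200, C1qc at chr4:136889801-136892936 and C1qa at chr4:136895916-136898844.

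Promoters of 7 of the 10 genes were in the RefSeq table used (GRCm38.p6), and the 4 shown belong to genes that differed between R6/2 and WT striatum on vehicle. Each run is the 250 bases before the start annotated for that promoter, 5′ to 3′ on the gene's strand. For C1qc this start lies inside the gene span given above, so the end of its run overlaps that span. C1qb is chr4:136886201-136886450 on the minus strand, C1qc chr4:136892915-136893164 on the minus strand, Cd68 chr11:69666171-69666420 on the minus strand and Ctss chr3:95526536-95526785 on the plus strand. Capitals mark GAGGAA or its reverse complement TTCCTC, the core of the PU box bound by PU.1, the macrophage transcription factor encoded by Spi1.
C1qb: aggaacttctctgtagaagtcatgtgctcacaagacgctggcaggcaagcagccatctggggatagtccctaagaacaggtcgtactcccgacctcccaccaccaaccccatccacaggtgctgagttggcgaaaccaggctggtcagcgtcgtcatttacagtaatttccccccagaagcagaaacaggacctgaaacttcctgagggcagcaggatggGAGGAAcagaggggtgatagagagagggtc
C1qc: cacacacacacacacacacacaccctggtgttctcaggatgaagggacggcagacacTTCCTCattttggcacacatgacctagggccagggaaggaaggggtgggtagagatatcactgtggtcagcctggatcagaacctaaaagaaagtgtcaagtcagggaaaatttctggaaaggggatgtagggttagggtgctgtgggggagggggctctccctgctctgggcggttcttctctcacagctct
Cd68: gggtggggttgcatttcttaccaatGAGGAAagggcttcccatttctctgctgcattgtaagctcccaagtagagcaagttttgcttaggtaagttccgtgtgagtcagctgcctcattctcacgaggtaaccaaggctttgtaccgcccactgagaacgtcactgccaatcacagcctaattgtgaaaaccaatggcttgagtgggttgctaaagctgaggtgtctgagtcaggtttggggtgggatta
Ctss: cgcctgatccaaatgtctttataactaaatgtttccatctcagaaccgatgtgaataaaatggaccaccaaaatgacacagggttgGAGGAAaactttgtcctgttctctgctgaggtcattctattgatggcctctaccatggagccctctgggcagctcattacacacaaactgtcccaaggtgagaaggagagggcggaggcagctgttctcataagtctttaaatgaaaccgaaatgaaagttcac

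GAGGAA occurred once in each of these promoters, at position -30 from the start in C1qb, -193 in C1qc on the opposite strand, -225 in Cd68 and -164 in Ctss. Aif1 had 1 match as well, on the opposite strand at position -7, and the windows of Cx3cr1 and P2ry12 had none. The Aif1 window (chr17:35176053-35176302) overlaps the gene's own span (chr17:35170986-35176083), and its match lies within that span. The motif was thus present, on either strand, in 5 of the 7 promoters of these genes and in 23.3% of all 32851 promoters in the table. The search covered the letters only, and such a match is not evidence of binding.

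All 10 markers were measured above the middle of the array: the probe set used for each, the one with the highest mean, averaged above the median probe set mean of 5.77 on the log2 scale. The treatment and the genotype were visible in the arrays. Hspb1, a heat shock protein gene, was 10.36 to 10.92 in R6/2 mice on HSP990, against 7.82 to 8.29 on vehicle, and 10.73 to 11.71 in WT mice on HSP990, against 8.13 to 8.56 on vehicle. Hspa1b, another, was 11.99 to 12.81 in R6/2 mice on HSP990, against 6.94 to 9.52 on vehicle. Drd2 and Pde10a, genes of medium spiny neurons, were lower in R6/2 than in WT striatum on vehicle, with differences of -1.78 ± 0.27 and -1.13 ± 0.22 log2 (SE). The arrays differed in RNA quality: a 3′ bias measure, the mean log2 excess of 3′ over 5′ control probe sets of Gapdh and beta-actin, had a median of 1.46 (0.87 to 4.56) in R6/2 mice on HSP990, 1.07 (0.78 to 2.11) in R6/2 mice on vehicle, 1.04 (0.64 to 1.61) in WT mice on HSP990 and 1.43 (0.82 to 2.45) in WT mice on vehicle. One array stood far apart on this measure, array 5 of the R6/2 mice on HSP990, and called values that it moves by over 1.5 times are given with and without it.

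The mean log2 level of the 10 genes had a lower median in R6/2 than in WT mice on either treatment. It was 7.99 at the lowest, 8.45 at the median and 8.62 at the highest in R6/2 mice on HSP990, and 8.26, 8.43 and 8.67 in R6/2 mice on vehicle. In WT mice it was 8.60, 8.74 and 8.90 on HSP990 and 8.50, 8.70 and 8.99 on vehicle. The R6/2 and WT ranges overlapped on either treatment, and within a genotype HSP990 and vehicle had almost the same median. In bulk tissue, fewer microglia and less RNA per microglial cell cannot be told apart.

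**Figure D1:**
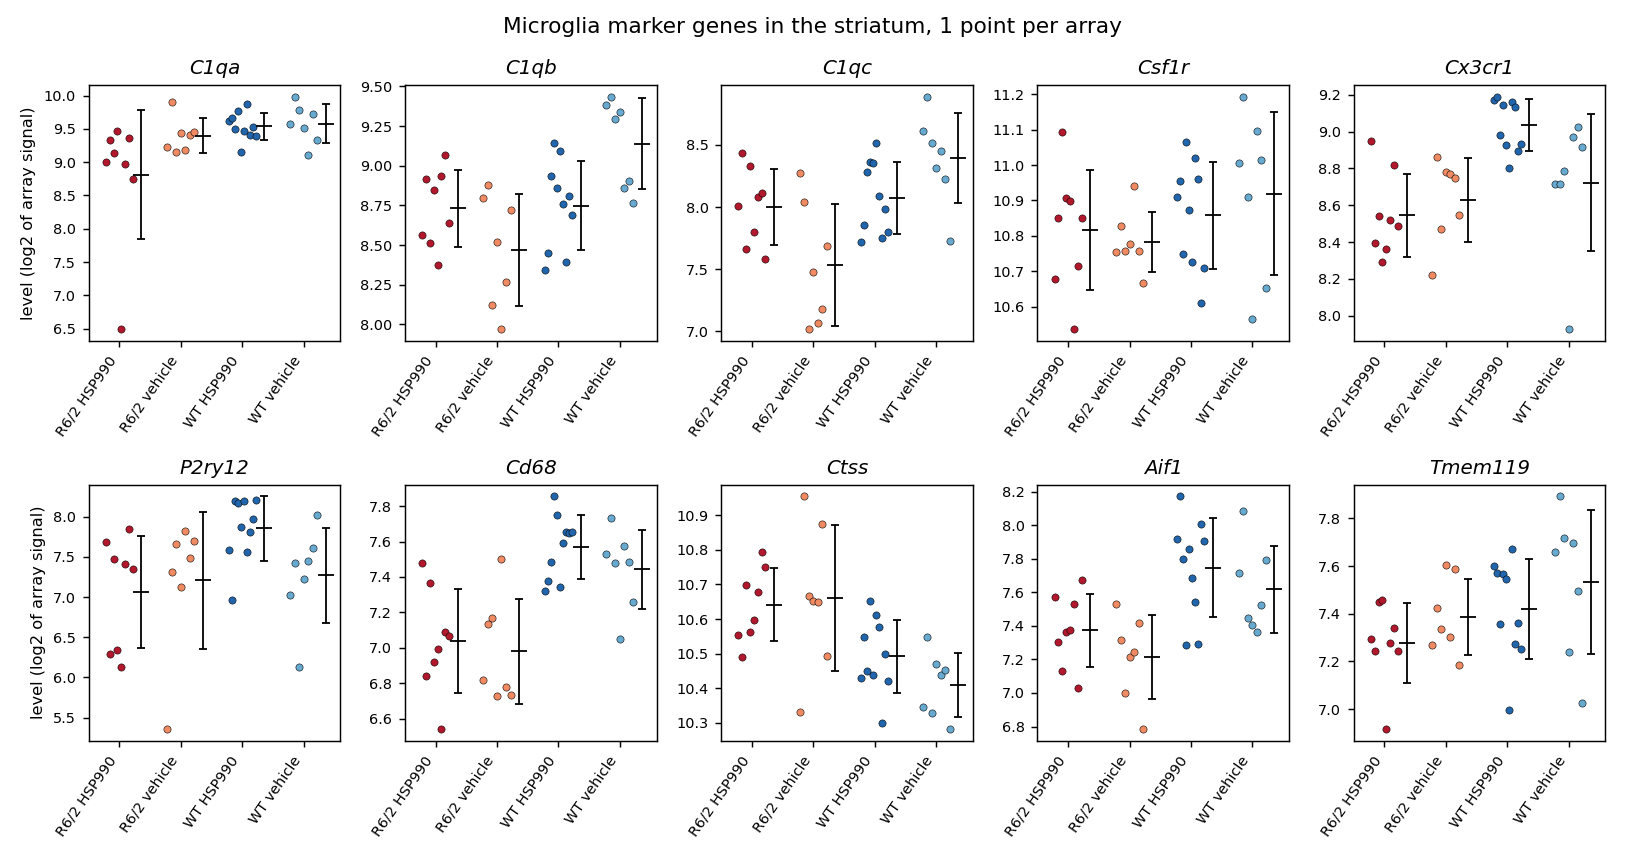
Log2 level of each of the 10 microglia marker genes by array, with one panel per gene, points for arrays and the groups R6/2 HSP990, R6/2 vehicle, WT HSP990 and WT vehicle along the axis. The lowest C1qa value, 6.49, belongs to 1 R6/2 array on HSP990, and no gene has groups that are fully separated between genotypes.

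On vehicle, R6/2 striatum had lower C1qb, C1qc, Cd68 and Aif1 and higher Ctss than WT striatum. That is 4 of the 10 genes lower and 1 higher at an adjusted p under 0.05, against 9.6% of all genes lower and 11.9% higher (21.5% in either direction). The median difference of the 10 genes was -0.16 log2, against -0.0053 for all genes tested, and 9 of the 10 were below 0. For none of the 10 were the R6/2 and WT arrays without overlap, as they were for 3.9% of all genes.

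The C1q chain genes C1qb and C1qc had the largest differences among the 10. C1qc was 7.02 at the lowest, 7.48 at the median and 8.27 at the highest in R6/2 mice on vehicle, against 7.73, 8.45 and 8.89 in WT mice on vehicle. Its fitted level was 0.553 of the WT level (-0.86 ± 0.18 log2, SE, limma adjusted p = 0.00082), with all 7 R6/2 arrays below the WT mean and 5 of the 7 below the lowest WT array. C1qb was 7.97, 8.52 and 8.88 in R6/2 mice and 8.76, 9.29 and 9.44 in WT mice, and again 5 of the 7 R6/2 arrays were below every WT array. Its difference was -0.67 ± 0.15 log2 (SE, limma adjusted p = 0.00122). The other 2 C1qb probe sets differed by -0.77 and -0.74 log2, with limma adjusted p of 0.00183 and 0.0105 over all probe sets. C1qa, whose product is the third chain of the same molecule, was 9.16, 9.42 and 9.91 in R6/2 mice and 9.11, 9.58 and 9.98 in WT mice, and its difference of -0.18 ± 0.27 log2 did not pass the test (limma adjusted p = 0.701, 95% interval -0.72 to 0.37). That interval is widened by R6/2 HSP990 array 5, in neither of these groups, because the fit shares 1 spread over all groups. Without that array the difference was -0.18 ± 0.13 log2 (SE, limma adjusted p = 0.36).

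Cd68 and Aif1, encoding a lysosomal glycoprotein of macrophages and the actin-binding protein IBA1, were also lower. Cd68 was 6.73, 6.82 and 7.50 in R6/2 mice on vehicle and 7.05, 7.48 and 7.73 in WT mice on vehicle, a difference of -0.46 ± 0.13 log2 (SE, limma adjusted p = 0.00821). Aif1 was 6.78, 7.24 and 7.53 in R6/2 mice and 7.36, 7.53 and 8.08 in WT mice. Its difference was -0.40 ± 0.13 log2 (SE, limma adjusted p = 0.0287), and all 7 R6/2 arrays were below the WT mean. This Aif1 call was lost when any one of 5 arrays was left out (R6/2 vehicle arrays 3 and 7, WT vehicle arrays 1, 2 and 7), with adjusted p up to 0.0853.

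Ctss, encoding the protease cathepsin S, differed the other way. It was 10.33, 10.65 and 10.95 in R6/2 mice on vehicle, against 10.28, 10.44 and 10.55 in WT mice on vehicle. The difference was 0.25 ± 0.07 log2 (SE, limma adjusted p = 0.0132), with 5 of the 7 R6/2 arrays above the highest WT array. It did not pass when only the groups compared were fitted (limma adjusted p = 0.0705). The receptor genes showed no call on vehicle: Cx3cr1 (the fractalkine receptor) differed by -0.09 ± 0.13, Csf1r (the CSF1 receptor) by -0.14 ± 0.09 and P2ry12 (the ADP receptor of resting microglia) by -0.06 ± 0.32 log2. Tmem119, a microglial membrane protein gene, differed by -0.15 ± 0.11 log2. Csf1r depended on the probe set: one of its other 2 probe sets differed by -0.32 log2 (limma adjusted p = 0.0289).

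Under HSP990, R6/2 striatum had lower Cd68, Cx3cr1, Aif1, C1qa and P2ry12 than WT striatum. That is 5 of the 10 genes lower and 0 higher, against 11% of all genes lower and 22.6% higher (33.6% in either direction). The median difference was -0.26 log2, against 0.04 for all genes tested, and 9 of the 10 were below 0. None of the 10 had R6/2 arrays without overlap with WT arrays, against 9.4% of all genes.

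Cx3cr1 was 8.29, 8.50 and 8.95 in R6/2 mice on HSP990, against 8.80, 9.06 and 9.19 in WT mice on HSP990, a difference of -0.49 ± 0.11 log2 (SE, limma adjusted p = 0.000839). In 6 of the 8 R6/2 arrays it was below the lowest WT array. The other Cx3cr1 probe set, with a mean of 3.94, lay below the median probe set and did not pass. It differed by -0.18 log2 under HSP990 and by -0.07 log2 averaged over treatments (limma adjusted p = 0.0611 and 0.394 over all probe sets). Cd68 was 6.54, 7.03 and 7.48 in R6/2 mice and 7.32, 7.62 and 7.85 in WT mice, a difference of -0.53 ± 0.11 log2 (limma adjusted p = 0.000378). Aif1 was 7.03, 7.37 and 7.67 in R6/2 mice and 7.29, 7.83 and 8.17 in WT mice, a difference of -0.37 ± 0.12 log2 (limma adjusted p = 0.0139).

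C1qa and P2ry12 were lower by more, but with a wider spread. C1qa was 6.49, 9.07 and 9.46 in R6/2 mice on HSP990 and 9.16, 9.51 and 9.87 in WT mice on HSP990, with the value of 6.49 in the array of strong 3′ bias. Its difference was -0.72 ± 0.24 log2 (limma adjusted p = 0.0167), and -0.39 ± 0.12 log2 (adjusted p = 0.0107) without that array. With the 3′ bias measure as a covariate it was -0.29 log2 (adjusted p = 0.232), and with only the groups compared fitted it did not pass (adjusted p = 0.0509). P2ry12 was 6.13, 7.38 and 7.85 in R6/2 mice and 6.96, 7.92 and 8.21 in WT mice. Its difference was -0.79 ± 0.28 log2 (limma adjusted p = 0.0293), and -0.35 log2 (adjusted p = 0.311) with the 3′ bias covariate. The call was also lost without R6/2 HSP990 array 2, 4 or 5 (adjusted p = 0.0706, 0.0691 and 0.0799). P2ry12 followed 3′ bias over the 32 arrays after group means were removed (Pearson r = -0.638, permutation p = 0.00012, adjusted over the 10 genes 0.0012; Spearman rho = -0.728, permutation p = 2e-05, adjusted 0.0002), and r was -0.757 without the 2 arrays farthest from the median bias. For C1qa r was -0.749 (permutation p = 0.0169, adjusted 0.0845), but -0.240 without those 2 arrays, and rho was -0.305 (permutation p = 0.122, adjusted 0.305), so the relation rests on those arrays. The part of RNA quality in these 2 differences was not tested beyond these values.

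**Figure D2:**
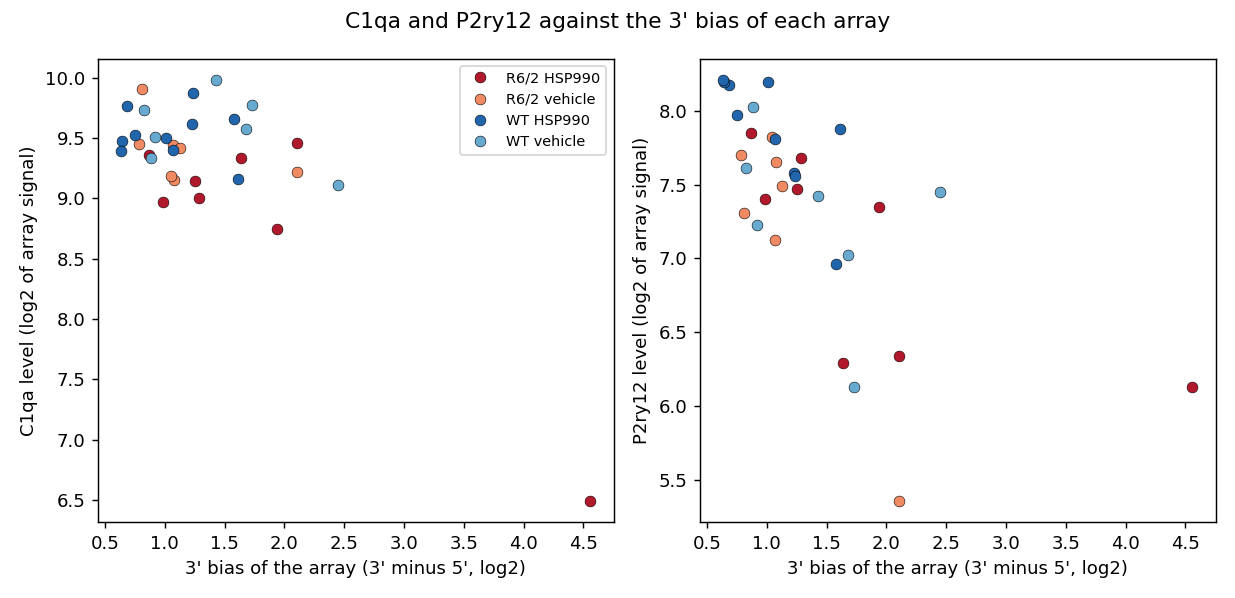
Log2 level of C1qa and P2ry12, group means not removed, against the 3′ bias measure (log2), with one point per array coloured by group. The R6/2 array on HSP990 with a bias of 4.56 has the lowest C1qa, and P2ry12 is lower at higher bias.

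C1qb, C1qc, Csf1r and Tmem119 did not pass under HSP990, with differences of -0.02 ± 0.13, -0.07 ± 0.16, -0.04 ± 0.08 and -0.14 ± 0.10 log2 (SE). Ctss differed by 0.15 ± 0.07 log2 (limma adjusted p = 0.0831), and passed after quantile normalization (adjusted p = 0.0225), with only the groups compared fitted (0.0463) and with the 3′ bias covariate (0.0417). One of the other 2 Csf1r probe sets passed under HSP990 (-0.30 log2, limma adjusted p = 0.00771), and averaged over treatments both did (-0.23 log2 each, adjusted p = 0.00881 and 0.00652). The genotype comparisons on each treatment use separate arrays, and whether a gene's difference changed with treatment is what the interaction tests. When both treatments were averaged, 6 genes (Aif1, C1qa, C1qb, C1qc, Cx3cr1 and Cd68) were lower in R6/2 and Ctss was higher, against 14.6% of all genes lower and 24.3% higher (38.9% in either direction). Cd68 had the smallest adjusted p, with -0.50 log2 (limma adjusted p = 1.65e-05), while the C1qa value of -0.45 log2 (adjusted p = 0.0444) lost its call without any one of 18 of the 32 arrays and was -0.28 log2 (adjusted p = 0.0097) without the R6/2 HSP990 array of strong 3′ bias. The other 2 C1qb probe sets did not pass averaged over treatments, with -0.26 and -0.22 log2 (limma adjusted p = 0.0859 and 0.234 over all probe sets). Under HSP990 alone these 2 probe sets differed by 0.25 and 0.30 log2 (limma adjusted p = 0.238 and 0.233).

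**Figure D3:**
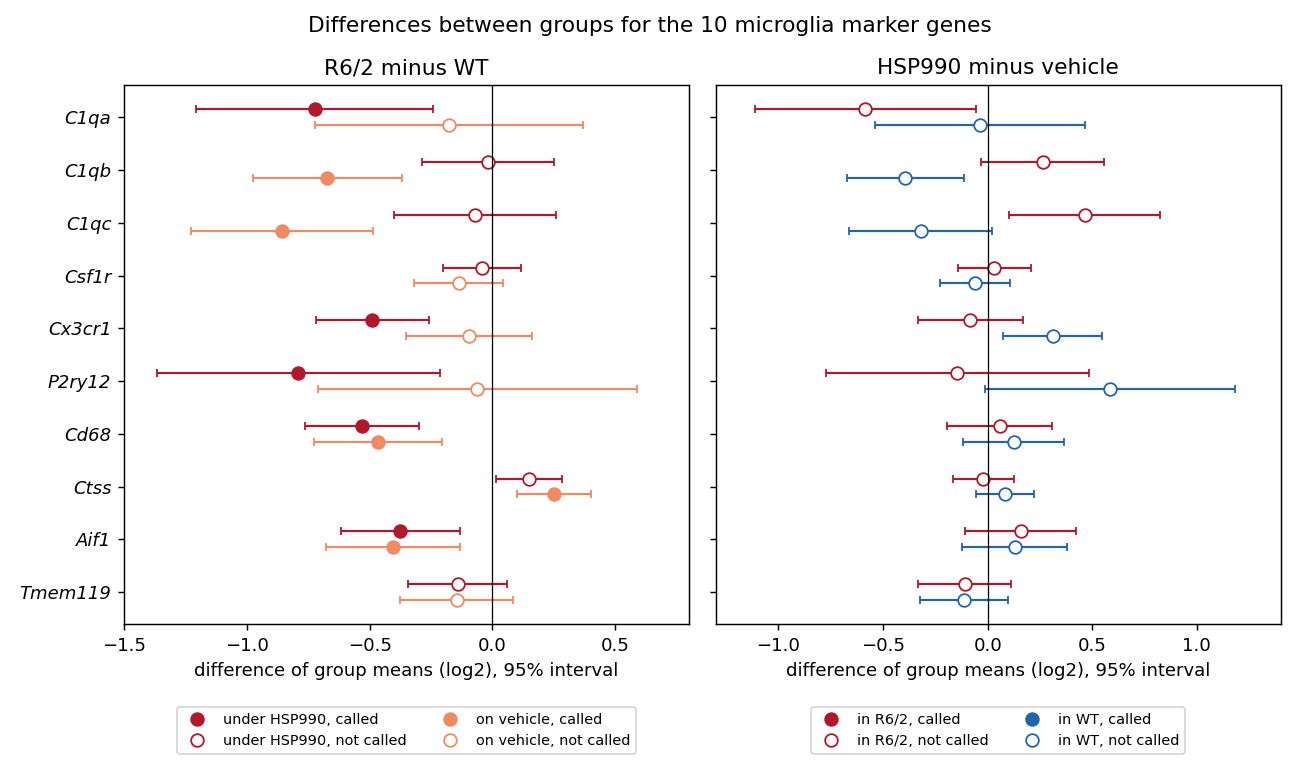
Differences of group means (log2) with 95% intervals for each gene, R6/2 minus WT on the left, under HSP990 and on vehicle, and HSP990 minus vehicle on the right, in R6/2 and in WT. Filled points passed an adjusted p under 0.05, and all points on the right are open.

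HSP990 changed none of the 10 genes at an adjusted p under 0.05 in limma, in either genotype. In R6/2 mice 2 of the 10 genes, C1qa and C1qc, had an unadjusted p under 0.05, against 15.8% of all genes, and 3.09% of all genes passed the adjusted threshold. That C1qa value was -0.58 log2 (limma adjusted p = 0.251), and -0.25 log2 (adjusted p = 0.372) without the R6/2 HSP990 array of strong 3′ bias. In WT mice these were 2 of the 10, C1qb and Cx3cr1, against 18.5% of all genes, with 5.8% passing. Averaged over genotypes 0 of the 10 had an unadjusted p under 0.05, against 20.1% of all genes, with 7.69% passing. For none of the 10 did HSP990 and vehicle arrays separate without overlap, as they did for 0.671% of all genes in R6/2 mice and 1.47% in WT mice.

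The smallest adjusted p in R6/2 mice was that of C1qc, and in WT mice that of C1qb followed by Cx3cr1. C1qc was 7.58, 8.04 and 8.43 in R6/2 mice on HSP990, against 7.02, 7.48 and 8.27 in R6/2 mice on vehicle, 0.46 ± 0.18 log2 apart (SE, limma adjusted p = 0.161). All 8 of those HSP990 arrays were above the vehicle mean, and the ranges overlapped. In WT mice C1qb was 8.34, 8.78 and 9.14 on HSP990 and 8.76, 9.29 and 9.44 on vehicle, a difference of -0.39 ± 0.14 log2 (limma adjusted p = 0.0888). The other 2 C1qb probe sets had differences of -0.63 and -0.72 log2 in WT mice, with adjusted p of 0.0142 and 0.0199 over all probe sets. Cx3cr1 differed by 0.31 log2 in WT mice (limma adjusted p = 0.119), with all 10 HSP990 arrays above the vehicle mean, and 0.18 log2 without WT vehicle array 4.

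None of the 10 genes passed the interaction test either, which asks whether the effect of HSP990 differed between genotypes (3 of the 10 had an unadjusted p under 0.05, against 12.9% of all genes, and 0.247% of all genes passed). C1qb had an interaction of 0.66 ± 0.20 log2 (limma p = 0.00245, adjusted p = 0.139) and C1qc one of 0.78 ± 0.24 log2 (limma p = 0.00299, adjusted p = 0.152). That of Cx3cr1 went the other way, at -0.39 ± 0.17 log2 (limma p = 0.0265, adjusted p = 0.318), and was -0.26 log2 without WT vehicle array 4. C1qb depended on the probe set: the other 2 had interactions of 1.02 and 1.04 log2 (limma adjusted p = 0.0519 and 0.0927 over all probe sets). With its probe sets averaged, C1qb passed (0.91 log2, limma adjusted p = 0.0487). Without R6/2 vehicle array 1, C1qc passed in both the HSP990 comparison in R6/2 mice (0.59 log2, adjusted p = 0.0362) and the interaction (0.91 log2, adjusted p = 0.0466).

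The change of C1qa was also set beside that of its partner chains. The change of C1qa minus the mean change of C1qb and C1qc was 0.59 log2 for R6/2 against WT on vehicle and -0.68 log2 for R6/2 against WT under HSP990. For HSP990 against vehicle it was -0.95 log2 in R6/2 mice and 0.32 log2 in WT mice. Without the R6/2 HSP990 array of strong 3′ bias it was -0.39 log2 for R6/2 against WT under HSP990 and -0.66 log2 for HSP990 in R6/2 mice, and with the 3′ bias covariate the genotype value under HSP990 was -0.27 log2. This way of grouping the chains was chosen after the values were seen, so the differences are a description and no test is given.

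Within groups C1qb and C1qc varied together from array to array. Their deviations from the group means had r = 0.842 and rho = 0.849 over 32 arrays (permutation p = 1e-05 for each, the smallest that 100000 permutations can give, adjusted 0.00045 over 45 pairs), and r was 0.825 without the 2 farthest arrays. C1qa was related to C1qb (r = 0.420, permutation p = 0.00151, adjusted 0.022; rho = 0.452, permutation p = 0.00696, adjusted 0.0783; r = 0.431 without the 2 farthest). It was also related to Tmem119 (r = 0.479, permutation p = 0.00242, adjusted 0.022; rho = 0.558, permutation p = 0.00079, adjusted 0.0178; r = 0.379 without the 2 farthest). Csf1r was related to Tmem119 (r = 0.591, permutation p = 0.00244, adjusted 0.022; rho = 0.530, permutation p = 0.00368, adjusted 0.0552; r = 0.587 without the 2 farthest) and to Cd68 (r = 0.541, permutation p = 0.00154, adjusted 0.022; rho = 0.454, permutation p = 0.00982, adjusted 0.0884; r = 0.384 without the 2 farthest). For C1qa and C1qc r was 0.292 (permutation p = 0.0702, adjusted 0.287) and rho 0.416 (permutation p = 0.0155, adjusted 0.117). The 45 pairs of the 10 genes had a median r of 0.115 (-0.396 to 0.842), and 29 were positive. In 5 pairs the Pearson adjusted p was under 0.05, and in 2, C1qb with C1qc and C1qa with Tmem119, the Spearman one was too.

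**Figure D4:**
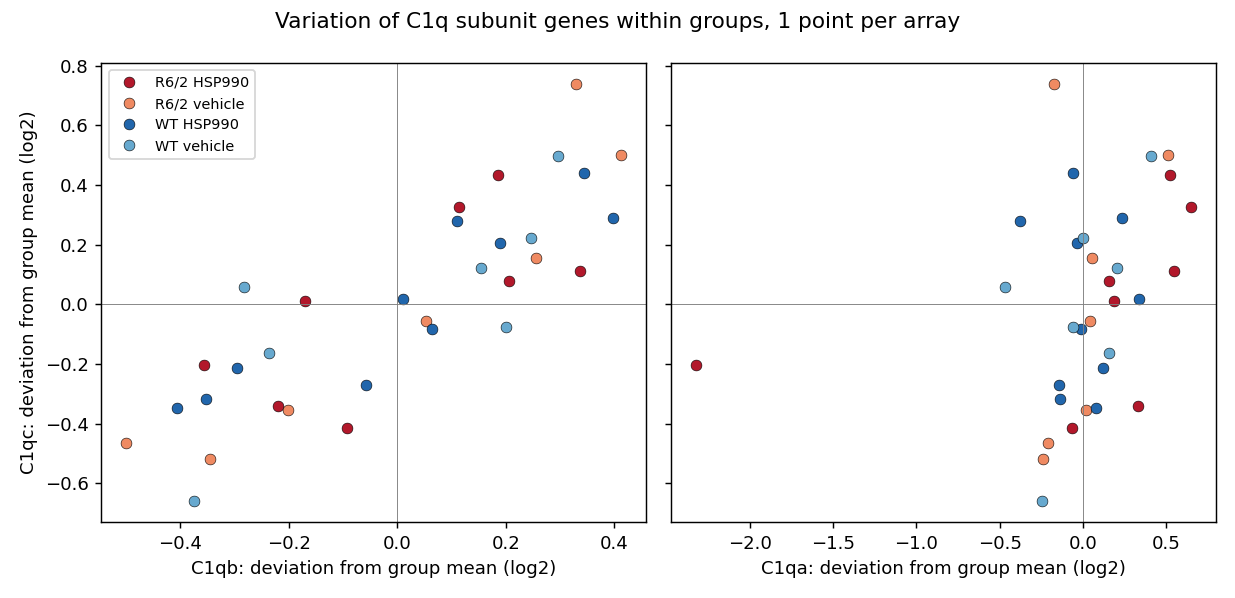
Deviation of C1qc from its group mean (log2) against that of C1qb on the left and that of C1qa on the right, with one point per array coloured by group. The points form a rising band with r = 0.842 for C1qb and a looser one with r = 0.292 for C1qa.

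Each gene's within-group r with the mean of the other 9 genes ranged from -0.124 for Aif1 to 0.478 for C1qa. The genes outside the list whose within-group deviations were most like the mean of the 10 were Atp5g2 (r = 0.763), Sh3glb2 (0.763), Nsfl1c (0.755), Lpcat3 (0.737), Mrpl10 (0.714), Ppfia1 (0.701), Ppp4c (0.697), Gjb1 (0.691), Gabarap (0.684) and Tufm (0.678), over 32 arrays. None of these is in a list used here, and genes of one array share its RNA quality. They have the highest r of all genes outside the 10, so these r values are selected. The mean of the 10 was lowest, 7.99, in R6/2 HSP990 array 5, and the ranking was not repeated without that array.

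Of 28 other measured genes enriched in microglia, 3 were lower in R6/2 than in WT striatum on vehicle and 0 higher, and under HSP990 5 were lower and 0 higher. The share lower on vehicle was near the 9.6% of all genes lower there, and under HSP990 11% of all genes were lower. Of all genes, 11.9% were higher on vehicle and 22.6% under HSP990. On vehicle they were Inpp5d (a phosphatase, -0.31 log2), Spi1 (-0.33 log2) and Olfml3 (-0.40 log2), and the median difference over the list was -0.18 log2. Spi1 lost its call without any one of 5 arrays and Olfml3 without any one of 8 and with the 3′ bias covariate (adjusted p = 0.0535). Under HSP990 they included Tgfbr1 (a TGF-beta receptor, -0.34 log2), Hpgds (-0.42 log2), Irf8 (a macrophage transcription factor, -0.39 log2) and Trem2 (a lipid receptor, -0.33 log2), and the list's median was -0.11 log2. P2ry13, an ADP receptor gene, was also lower (-0.31 log2) and was picked out after its values were seen. Hpgds and Trem2 lost their calls with the 3′ bias covariate (adjusted p = 0.0651 and 0.141), Trem2 also without R6/2 HSP990 array 3 or 5, and P2ry13 without any one of 4 arrays. Mertk, a receptor for engulfing dying cells, was lower on HSP990 in R6/2 mice (-0.52 log2, limma adjusted p = 0.00529) and in WT mice (-0.70 log2, limma adjusted p = 4.27e-05). Olfml3 was higher on HSP990 in R6/2 mice, by 0.48 log2 (limma adjusted p = 0.048), a call lost without any one of 20 arrays and with the covariate (adjusted p = 0.132).

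Of 13 genes for ligands and niche signals of microglial receptors, 2 were lower and 0 higher in R6/2 striatum on vehicle, Cx3cl1 and Entpd1, and under HSP990 3 were lower and 1 higher. The list also holds genes of receptors (Cd200r1, Sirpa, Csf2ra and Csf2rb), so its counts and medians are not of ligands alone. Of all genes, 9.6% were lower and 11.9% higher on vehicle, and 11% were lower and 22.6% higher under HSP990. The list's median difference was -0.05 log2 on vehicle and 0.0077 log2 under HSP990. Cx3cl1, the neuronal ligand of CX3CR1, was 9.87, 10.23 and 10.68 in R6/2 mice on vehicle and 10.66, 11.13 and 11.41 in WT mice on vehicle, a difference of -0.85 ± 0.12 log2 (limma adjusted p = 3.84e-06). Under HSP990 its difference was -1.02 ± 0.11 log2 (limma adjusted p = 6.77e-09). Entpd1, an ATP-hydrolysing ectoenzyme, differed by -0.91 log2 on vehicle (adjusted p = 0.00988) and by -0.61 log2 under HSP990 (adjusted p = 0.0358, lost without any one of 7 arrays). Il34, the other ligand of the CSF1 receptor, was lower under HSP990 (-0.46 log2, limma adjusted p = 0.0245). Without R6/2 HSP990 array 5 its difference was -0.24 log2 (adjusted p = 0.0313), and with the 3′ bias covariate -0.12 log2 (adjusted p = 0.346). Cd200, which quiets microglia, was higher under HSP990 (0.72 log2, limma adjusted p = 0.000694).

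The complement list of 16 measured genes had 2 lower and 0 higher on vehicle, Cd55 (-0.51 log2) and Cfp (properdin, -0.59 log2). Of the 16, 8 averaged below the median probe set, Cd55 among them (means of 4.40 in R6/2 and 4.91 in WT mice on vehicle). Under HSP990 4 were higher and 2 lower. These shares, and that of the genes lower on vehicle, were near those of all genes (9.6% lower on vehicle, 22.6% higher and 11% lower under HSP990). On vehicle 11.9% of all genes were higher. The values under HSP990 were C1qbp (a mitochondrial protein named for C1q binding) at 0.45 log2, Serping1 (the C1 inhibitor) at 0.68 log2 and Masp1 at 0.23 log2 higher, and Cfp at -0.47 log2. C1s1 (0.38 log2) and Cd59a (-0.42 log2) also passed and were picked out after their values were seen. C1s1 was 0.22 log2 (adjusted p = 0.0559) without R6/2 HSP990 array 6, Cd59a lost its call without any one of 12 arrays, and Masp1 lost its call with the 3′ bias covariate (0.15 log2, adjusted p = 0.0898). The list's median was -0.02 log2 on vehicle and 0.09 log2 under HSP990. Genes of disease-associated microglia, 18 of them measured, had 2 lower and 0 higher on vehicle (Lpl, -0.78 log2, and Ctsb, -0.31 log2). Of the 18, 9 averaged below the median probe set, Clec7a among them (means of 4.17 in R6/2 and 3.95 in WT mice under HSP990). Under HSP990 2 were higher and 2 lower, Lyz2 by 0.44 and Clec7a by 0.22 log2 higher, and Lpl at -0.70 and Apoe at -0.57 log2. Apoe was -0.25 log2 (adjusted p = 0.0426) without R6/2 HSP990 array 5 and -0.10 log2 (adjusted p = 0.588) with the 3′ bias covariate, and lost its call without any one of 11 other arrays. Clec7a lost its call without any one of 6 arrays and Ctsb without any one of 13, and both with the covariate (adjusted p = 0.162 and 0.0592). The counts of this list stand beside 9.6% of all genes lower and 11.9% higher on vehicle and, under HSP990, 22.6% higher and 11% lower. The median of that list was -0.06 log2 on vehicle and -0.05 log2 under HSP990.

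Markers of other cell types were counted in the same comparisons, and their part in the microglial differences was not tested. Of all genes, 9.6% were lower and 11.9% higher on vehicle, and 11% were lower and 22.6% higher under HSP990. Of 12 markers of medium spiny neurons 11 were lower in R6/2 on either treatment, and the list's mean level was 9.18 to 10.80 in R6/2 mice and 11.53 to 11.94 in WT mice on vehicle. Of 10 astrocyte markers 1 was lower on vehicle and 7 under HSP990, and of 9 oligodendrocyte markers 1 and 5 were, so that the counts on vehicle were near that background. With the 3′ bias covariate 3 of the 7 astrocyte calls and 2 of the 5 oligodendrocyte calls under HSP990 were lost. Under HSP990 the astrocyte mean level was 9.51 to 9.74 in R6/2 mice and 9.80 to 10.09 in WT mice, without overlap, and the oligodendrocyte mean was 10.05 to 10.78 in R6/2 mice and 10.40 to 11.32 in WT mice. Markers of border macrophages, monocytes and neutrophils, 15 measured, of which 14 averaged below the median probe set, had 1 lower on vehicle (Cd163, lost without any one of 9 arrays and with the covariate) and 0 under HSP990, with a mean level of 4.69 to 4.96 in R6/2 mice and 4.77 to 4.96 in WT mice on vehicle. Of 6 oligodendrocyte precursor markers 0 changed on vehicle, and 1 was higher and 1 lower under HSP990. Of 9 endothelial markers 1 was lower on vehicle, and 1 was higher and 1 lower under HSP990. With the 3′ bias covariate the 2 endothelial calls and 1 of the 2 precursor calls under HSP990 were lost. Of 3 red blood cell markers 1, Alas2, was lower on either treatment, and they averaged 3.91 to 4.29 in R6/2 mice and 4.13 to 4.62 in WT mice on vehicle. None of 7 choroid plexus markers passed (1 with an unadjusted p under 0.05 on vehicle, 0 under HSP990), and they averaged 5.60 to 7.59 in R6/2 mice and 5.80 to 9.38 in WT mice on vehicle.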

How the data were processed

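The authors deposited log2 values of a mouse Affymetrix array, normalized by a method not given in the sources used here; per the labels' protocols, RNA was labelled with biotin. The table has 45101 probe sets (64 controls), and array medians ran from 5.73 to 5.78 on the log2 scale. Arrays have no read depth, and precision depends on how many arrays a group had and on each gene's spread between arrays. Probe sets were named by the platform's annotation, updated through RefSeq: 34945 had 1 symbol, 932 several and 9160 none. For each of 18193 genes the probe set with the highest mean was fitted in limma 3.58.1 (R 4.3.3) as 4 group means, with Benjamini-Hochberg adjustment over all genes and a call at an adjusted p under 0.05. The script was tested on simulated data. Correlations used deviations from group means and 100000 permutations. The genes named outside the 10 were up to 4 of each list with the smallest adjusted p among those called, the 10 most alike, and Hspa1b, Hspb1, Drd2 and Pde10a as checks. The members and lists were chosen with earlier results of these data known. Alternatives were another normalization, a filter on dim genes, other probe set rules, other sample sets and variance priors, a replicate block, a 3′ bias covariate and leaving out arrays; the C1q subunit comparison, described without a test, and the omissions of arrays and the covariate for the other lists were added after the data were seen.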

Additional observations from a re-analysis of the deposited data

Results flagged for a closer look

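Of 40 sets of values, 10 genes in 4 groups, 6 had a sample far from the rest by Dixon's criterion, which chance flags in about 1 set in 20. C1qa was 6.49 in R6/2 HSP990 array 5, with the next array at 8.75, and in the same array Tmem119 was 6.92, with the next at 7.24. C1qa was 9.91 in R6/2 vehicle array 2, with the next at 9.45. P2ry12 was 5.36 in R6/2 vehicle array 1 (next 7.12) and 6.96 in WT HSP990 array 2 (next 7.56). Cx3cr1 was 7.93 in WT vehicle array 4 (next 8.72). Without R6/2 vehicle array 1, the P2ry12 difference of R6/2 from WT on vehicle was 0.25 log2 (limma adjusted p = 0.555), against -0.06 log2 with it. Without WT vehicle array 4, that of Cx3cr1 was -0.23 log2 (limma adjusted p = 0.112). R6/2 HSP990 array 5 also had the highest 3′ bias, 4.56, and its part in these values was not tested further.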

How the results depend on the processing

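Of 600 results of single genes under settings other than leaving out an array, 574 kept their direction and their side of the threshold, 7 changed sign within 1 SE without a call, 6 gained a call, 8 lost one and 5 reversed, a change of sign counting as reversed only beyond 1 SE. The filter on dim genes, the adjustment over all probe sets, the variance prior and the fit of only the groups compared leave the log2 change as it was. In these settings only the call could differ, so agreement in direction was fixed in advance. With 1 array left out, 2169 of 2240 kept direction and side of the threshold, 26 lost a call and 4 gained one. Leaving out an array outside the groups compared likewise cannot move the log2 change, only the SE and the call. The reversed values were C1qb for R6/2 against WT under HSP990 (0.18 log2), Csf1r for HSP990 in WT mice (0.0404 log2) and averaged over genotypes (0.0612 log2), all with probe sets averaged, and, with the 3′ bias covariate, P2ry12 for HSP990 in R6/2 mice (0.24 log2) and the C1qa interaction (0.0365 log2). None of them was called.

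With all probe sets tested separately, 5968 were called for R6/2 against WT on vehicle, 10428 under HSP990, 880 for HSP990 in R6/2 mice, 1838 in WT mice, 73 for the interaction, 11896 for genotype averaged and 2474 for HSP990 averaged, against 3906, 6108, 563, 1056, 45, 7069 and 1399 genes. Genes called for HSP990 in R6/2 mice numbered 202 with only the groups compared, and 368 with the 3′ bias covariate. Interaction calls were 80 with averaged probe sets, 16 with the covariate and 25 without the arrays of strong bias. With the replicate block, HSP990 in WT mice gave 655 calls and the interaction 23. P2ry12 then lost its call for R6/2 against WT under HSP990 (-0.73 log2, limma adjusted p = 0.0759). Deviations of same-numbered arrays correlated above 0.1 in 19 of 43 pairs, a count without a reference from arrays of different numbers. Between any 2 groups, 0 to 2 of the 7 or 8 arrays correlated best with the array of their own number. Whether the numbers mark pairs was not tested further. With averaged probe sets 1 marker, C1qb, was called for HSP990 in WT mice (-0.58 log2, limma adjusted p = 0.0147). C1qb was also the 1 marker called for the interaction in that setting (0.91 log2, limma adjusted p = 0.0487).

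Leaving out 1 array at a time gave 309 to 1043 genes called for HSP990 in R6/2 mice and 30 to 182 for the interaction, and 0 to 1 markers called in each; the 1043, the 182 and the 1 marker came without R6/2 vehicle array 1, and the 309 without R6/2 vehicle array 7. The C1q subunit difference for HSP990 in WT mice ran from 0.26 to 0.38 log2 with 1 array left out and was 0.41 log2 with averaged probe sets. For R6/2 against WT under HSP990 it was -0.27 log2 with the covariate. With averaged probe sets Csf1r gained a call for genotype averaged over treatments (-0.18 log2, adjusted p = 0.00854). The cause of these changes was not tested.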

Other observations

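Of 21 measured cytokines, chemokines and NF-kB targets, 3 were lower and 0 higher on HSP990 in WT mice, where 5.8% of all genes were called in either direction. Of the 21, 14 averaged below the median probe set. The list's median was -0.04 log2, against -0.03 log2 for all genes. Nfkbia, the NF-kB inhibitor gene that NF-kB itself induces, was 9.20, 9.32 and 9.58 in WT mice on HSP990 and 10.11, 10.35 and 11.36 on vehicle, a difference of -1.17 ± 0.13 log2 (limma adjusted p = 6.18e-08) with no overlap. Cd14 and Icam1 differed by -0.60 and -0.51 log2 in WT mice, and Icam1 by -0.33 log2 (adjusted p = 0.0117) without WT vehicle array 4. Icam1 lay below the median probe set, with WT means of 4.04 on HSP990 and 4.55 on vehicle. In R6/2 mice, where 3.09% of all genes were called, 1 was lower, Nfkbia (-0.67 ± 0.13 log2, limma adjusted p = 0.00206). Under HSP990, R6/2 mice had higher Tnfaip3 (0.61 log2), Nfkbia (0.34 log2) and Tlr2 (0.28 log2) than WT mice, and 0 of the 21 were lower, against 22.6% of all genes higher and 11% lower. Nfkbia lost that call without R6/2 HSP990 array 7 and Tlr2 without any one of 7 arrays and with the 3′ bias covariate (adjusted p = 0.153).

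Of 17 measured lysosomal genes, 5 were higher and 0 lower in R6/2 than in WT striatum under HSP990, near the share of all genes (22.6% higher), and these were Lamp1 (0.20 log2), Gusb (0.33 log2), Cd83 (0.63 log2), an immune surface protein kept in that list, Npc2 (0.27 log2) and, picked out after its values were seen, Ctsl (0.41 log2). On vehicle 1 was higher, Scarb2 (0.26 log2), and 1 lower, Ctsa (-0.18 log2). Of all genes, 11.9% were higher and 9.6% lower on vehicle, and 11% were lower under HSP990. Single arrays ended the calls of Cd83 (8 arrays), Npc2 (13), Ctsl (12), Scarb2 (4) and Ctsa (23), and the 3′ bias covariate those of Gusb, Cd83 and Npc2 (adjusted p = 0.0646, 0.0966 and 0.235). The list's median was 0.12 log2 under HSP990 and 0.10 log2 on vehicle.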
